A study of Mus musculus with 6 samples.

Results

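The genes described are 10 that take part in the p53 stress response or belong to the GADD45 family: Mdm2, Cdkn1a, Ccng1, Trp53inp1, Sesn1, Bbc3, Pmaip1, Gadd45a, Gadd45b and Gadd45g. They were chosen by name, with earlier results of these data known. Every probe set whose only gene symbol was one of these names was taken, 21 probe sets in all. The brightest probe set stood for its gene and the others served as a check. Of the probe sets, 20 passed the filter on low signal, and all 10 genes were among the 12917 genes tested. The cells were mouse embryo fibroblasts of the ICR strain, grown as 2 cultures from 2 embryos at embryonic day 15.5 and read on 6 one-colour Affymetrix arrays. Control cells stayed at 37 °C with no agent. LPS cells received lipopolysaccharide, a bacterial cell wall component, at 1 μg/ml for 4 h. HS+LPS cells first went through 1 h of heat shock at 42 °C, followed by the same LPS treatment. Each group held 1 array of each culture, so there were 2 arrays a group. No group with heat shock alone was analysed here, so an effect of heat itself and an effect of heat on the response to LPS cannot be told apart.

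p53 is a transcription factor that is kept scarce in resting cells by Mdm2, a ubiquitin ligase that is also a p53 target and so closes a negative feedback loop. When DNA is damaged or the cell is otherwise stressed, p53 accumulates and raises genes that halt the cell cycle (Cdkn1a, Ccng1), handle metabolic and oxidative stress (Sesn1, Trp53inp1) or promote cell death (Bbc3, Pmaip1). The GADD45 proteins are small stress sensors that bind cell cycle and MAP kinase proteins. Gadd45a is a classical p53 target, and Gadd45b is known as a gene induced by NF-κB, the main transcription factor downstream of LPS.

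The bases just upstream of the start site are shown for Mdm2, the gene called without the block. They are also shown for the 3 GADD45 genes, whose groups differed in order. Of the 2 Cdkn1a windows the upstream one is shown, because it held a p53 element. The sequences are from RefSeq (GRCm38.p6), 250 bases each, 5′ to 3′ on the strand of the gene, and capitals mark the matches to the motifs searched. The windows are chr10:117710759-117711008 on the minus strand for Mdm2, chr6:67037408-67037657 on the minus strand for Gadd45a, chr10:80929841-80930090 on the plus strand for Gadd45b, chr13:51846425-51846674 on the plus strand for Gadd45g and chr17:29090729-29090978 on the plus strand for Cdkn1a.
Mdm2: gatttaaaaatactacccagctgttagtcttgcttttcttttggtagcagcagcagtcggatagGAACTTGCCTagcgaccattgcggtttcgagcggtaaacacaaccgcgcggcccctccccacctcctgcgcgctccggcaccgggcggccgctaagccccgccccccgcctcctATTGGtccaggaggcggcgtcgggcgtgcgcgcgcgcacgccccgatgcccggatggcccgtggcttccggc
Gadd45a: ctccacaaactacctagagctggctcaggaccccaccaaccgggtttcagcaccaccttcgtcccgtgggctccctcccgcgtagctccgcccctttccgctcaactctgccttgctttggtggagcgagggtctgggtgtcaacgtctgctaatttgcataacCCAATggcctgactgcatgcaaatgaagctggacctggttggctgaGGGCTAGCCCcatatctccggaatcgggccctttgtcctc
Gadd45b: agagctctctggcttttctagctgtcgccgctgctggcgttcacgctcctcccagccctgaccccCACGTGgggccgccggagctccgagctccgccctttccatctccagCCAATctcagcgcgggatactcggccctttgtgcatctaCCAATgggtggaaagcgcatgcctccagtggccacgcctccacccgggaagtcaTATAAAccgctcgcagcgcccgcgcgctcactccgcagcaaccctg
Gadd45g: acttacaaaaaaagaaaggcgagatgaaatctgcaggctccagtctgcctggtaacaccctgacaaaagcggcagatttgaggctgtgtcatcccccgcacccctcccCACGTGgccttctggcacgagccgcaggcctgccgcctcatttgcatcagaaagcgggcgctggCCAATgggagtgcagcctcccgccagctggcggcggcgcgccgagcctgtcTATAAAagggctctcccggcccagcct
Cdkn1a: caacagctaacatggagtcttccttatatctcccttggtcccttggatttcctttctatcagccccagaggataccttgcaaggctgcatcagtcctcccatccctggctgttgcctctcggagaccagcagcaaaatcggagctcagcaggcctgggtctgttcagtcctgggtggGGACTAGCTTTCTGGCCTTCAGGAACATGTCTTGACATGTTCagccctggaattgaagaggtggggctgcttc

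Windows of this length were found for 8 of the 10 genes, some with several start sites, which made 12 windows. All motifs were searched on both strands, and their matches may overlap. Cdkn1a had windows for 2 start sites. The window of the downstream start, chr17:29093519-29093768, held no match to any motif searched. The window printed above, that of the upstream start, held a p53 response element. That element is, by the rule used, a pair of p53 decamers at most 13 bases apart with at most 1 mismatch outside the core. Its downstream copy, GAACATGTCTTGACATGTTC at chr17:29090928-29090947, lay 51 to 32 bases upstream of the start site, had no spacer and had 1 mismatch. Another pairing at chr17:29090906-29090937 had 0 mismatches and a spacer of 12 bases, and it overlapped the first. Such an element was found in 0.356% of the 32851 windows of all genes, and in 1 of the 12 windows here. A single p53 decamer, present in 7.13% of all windows, was found in 5 of the 12, those of Gadd45a, Sesn1, Mdm2, Ccng1 and Cdkn1a.

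The Gadd45b and Gadd45g windows had the same 3 motifs in the same order. Each held an E-box (CACGTG), then a CCAAT box (CCAAT), then a TATA box (TATAAA) nearest to the start site. In Gadd45b the E-box began 185 bases and the TATA box 46 bases upstream of the start, and in Gadd45g 142 and 27 bases upstream. The 3 motifs occurred together, in any order, in 0.167% of all windows. This was the only combination counted, and it is the one that these windows share, so the share is a description and not a test. Alone they were common, with the E-box in 6.02%, the CCAAT box in 33.8% and the TATA box in 12.4%. The Gadd45a window held a CCAAT box and a p53 decamer but neither of the other motifs. The heat shock element in its head-to-head form (GAANNTTC) was in 6.69% of all windows and in 0 of the 12. Its tail-to-tail form (TTCNNGAA) was in 7.17% of all windows and in 1 of the 12, that of Cdkn1a, where it overlapped the p53 element. The AP-1 site (TGANTCA, 6.75% of all windows) and the cyclic AMP response element (TGACGTCA, 1.55%) were in 0 of the 12. The NF-kB site, in 7.25% of all windows, was in 1, a window of Bbc3. These are matches of letters, and binding was not measured.

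Signals were compared as log2(intensity + 3.37) in 1 limma fit over all genes with Benjamini-Hochberg adjustment and a threshold of 0.05 for the adjusted p, and folds are on that scale. Because the same 2 cultures appear in every group, the fit was also made with the culture as a block, and both adjusted p-values are given where they fall on different sides of the threshold. The LPS arrays enter both LPS against Control and HS+LPS against LPS, and each of the other pairs of comparisons also shares 1 group, so the comparisons are not independent. The block left 2 residual degrees of freedom and its p-values, like the others, rest on 2 embryos. In bulk cells, fewer cells of a type and less RNA per cell cannot be told apart.

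Mdm2, the feedback inhibitor of p53, was the only one of the 10 genes that passed the test without the block. Its signal was 903 and 774 in Control cultures 1 and 2, 1165 and 1063 in LPS, and 2072 and 2196 in HS+LPS. The 3 groups did not overlap, and their order was the same in both cultures. The group means were 838 ± 91.0, 1114 ± 72.1 and 2134 ± 87.6 (SD, n = 2). Signal was 1.91-fold higher in HS+LPS than in LPS (log2 difference 0.94, SE 0.12, adjusted p = 0.0324) and 2.55-fold higher than in Control (1.35, SE 0.12, adjusted p = 0.0224). LPS alone was 1.33-fold above Control (0.41, SE 0.12), with an adjusted p of 0.744 without the block and 0.0452 with it.

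The calls for Mdm2 without the block are near the limit of what 2 arrays a group can show. Without the block, leaving out any 1 of the 6 arrays ended both calls, with adjusted p-values of at most 0.235 for HS+LPS against LPS and 0.261 for HS+LPS against Control. A mean over all of the gene's probe sets, which takes in 1457929_at with its signal near noise, ended both (adjusted p = 0.174 and 0.127). A fit without the intensity trend also ended both (0.0865 and 0.0892). These 2 fits, too, were made without the block. With the block the adjusted p-values were 0.000253 and 6.12e-05, and no array was left out in a fit with the block.

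The 3 Mdm2 probe sets were discordant in a way that followed their brightness. 1423605_a_at gave nearly the same signals as the main probe set 1427718_a_at: 949 and 819 in Control, 1097 and 1065 in LPS, and 1937 and 2062 in HS+LPS. In a fit in which every probe set stood on its own, its difference was 0.88 (SE 0.12, adjusted p = 0.0450) for HS+LPS against LPS, beside 0.94 (adjusted p = 0.0449) for 1427718_a_at. In that fit LPS against Control did not pass for either, with adjusted p-values of 0.179 and 0.0561 even with the block. The third probe set, 1457929_at, read only 10.2 and 5.60 in Control, 10.6 and 4.68 in LPS, and 9.96 and 7.08 in HS+LPS. It exceeded the brightest bacterial control probe set, used here as the noise level (6.0 to 7.67), on 4 of the 6 arrays, and its groups overlapped. Its difference for HS+LPS against LPS was 0.15 (SE 0.44, adjusted p = 0.919), which is a reading near noise and not a measured absence of change.

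**Figure D1:**
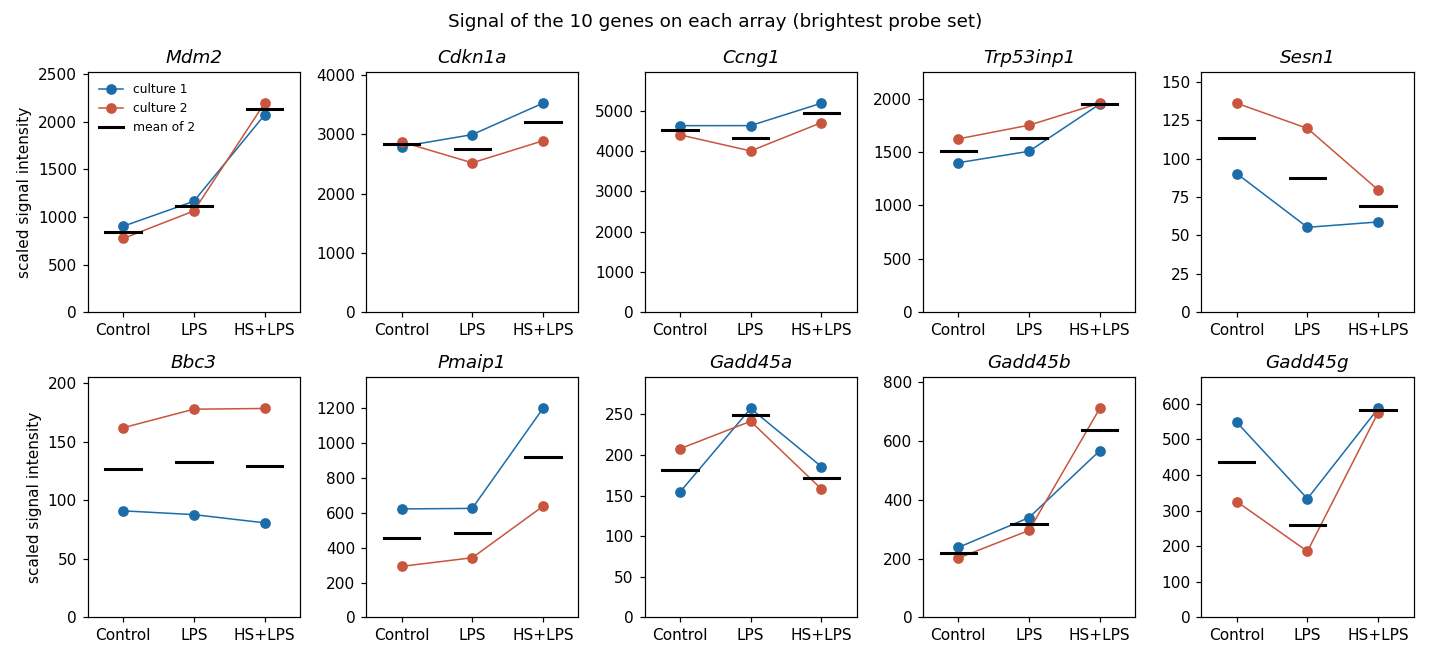
Scaled signal intensity (y axis, from 0) of the brightest probe set of each of the 10 genes in Control, LPS and HS+LPS, with a line for each culture and a black bar for the mean of 2 arrays. Mdm2 and Gadd45b step up in both cultures from Control to LPS to HS+LPS, Gadd45a peaks in LPS, and Gadd45g is lowest in LPS; the 2 Pmaip1 lines run apart, with culture 1 above culture 2 in every group.

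The cell cycle genes Cdkn1a and Ccng1 differed little between groups. Cdkn1a, which encodes the kinase inhibitor p21, read 2793 and 2874 in Control, 2995 and 2519 in LPS, and 3525 and 2891 in HS+LPS on its brightest probe set. LPS and HS+LPS overlapped across cultures, although HS+LPS was higher within each. The difference was 0.22 (SE 0.14, adjusted p = 0.504; with the block 0.127), and after quantile normalization it was 0.04. The dimmer Cdkn1a probe set 1421679_a_at was more even: 590 and 635 in Control, 606 and 642 in LPS, and 741 and 787 in HS+LPS. There the HS+LPS arrays stood above all others and the difference from LPS was 1.22-fold (0.29, SE 0.11, adjusted p = 0.341), which passed only with the block (0.0389). It also exceeded Control by 0.32 (adjusted p = 0.317; with the block 0.0295). Neither probe set placed LPS far from Control (-0.04 and 0.03).

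Ccng1 encodes cyclin G1, a p53 target that acts back on Mdm2. Its signals were 4635 and 4406 in Control, 4636 and 4007 in LPS, and 5193 and 4709 in HS+LPS. The HS+LPS arrays were the highest, by a narrow margin, and the difference from LPS was 0.20 (SE 0.11, adjusted p = 0.441; with the block 0.0800). Its other probe sets, 1450017_at and 1450016_at, gave 0.20 and 0.16, and neither passed. After quantile normalization the Ccng1 difference was 0.02, so its size depends on the scaling.

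Of the genes that handle stress and metabolism, Trp53inp1 was somewhat higher and Sesn1 lower after heat shock and LPS. Trp53inp1 encodes a nuclear protein that promotes p53 phosphorylation and autophagy. It read 1400 and 1624 in Control, 1507 and 1751 in LPS, and 1949 and 1958 in HS+LPS. The HS+LPS arrays were above all others, 1.20-fold over LPS (0.27, SE 0.13, adjusted p = 0.361; with the block 0.0479) and 1.30-fold over Control (0.37, SE 0.13, adjusted p = 0.232; with the block 0.0146). The call against LPS is weak: with the block, quantile normalization gave 0.13 (adjusted p = 0.229) and median centring 0.26 (adjusted p = 0.0765). The call against Control held in those same fits (0.0374 and 0.0127). The dimmer probe set 1416927_at read 141 and 191 in Control, 174 and 220 in LPS, and 261 and 235 in HS+LPS, with the same order of groups.

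Sesn1 encodes sestrin 1, which protects cells from oxidative stress and restrains mTOR. Its main probe set, 1433711_s_at, read 90.4 and 136 in Control, 55.3 and 120 in LPS, and 58.8 and 79.7 in HS+LPS. This probe set and 1438931_s_at are of a class that can match transcripts of more than 1 gene. Culture 2 was above culture 1 in every group. Both HS+LPS arrays lay below both Control arrays (-0.67, SE 0.40, adjusted p = 0.486), and this difference passed with the block (SE 0.18, adjusted p = 0.0335), but not with the block after quantile normalization (-0.55, adjusted p = 0.0762). Against LPS the cultures went different ways, with 0.08 in culture 1 and -0.57 in culture 2. Probe sets 1438931_s_at and 1454699_at were also lower in HS+LPS than in Control, by log2 differences of -0.57 and -0.71 (with the block, adjusted p = 0.0943 and 0.0531). The remaining one, 1444376_at, was at or under the noise level on all 6 arrays and did not enter the fit.

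The BH3-only genes, whose products neutralise survival proteins of the BCL2 family, differed in their group values. Pmaip1, which encodes Noxa, read 622 and 293 in Control, 625 and 342 in LPS, and 1198 and 637 in HS+LPS. Culture 1 was well above culture 2 in every group, so that the LPS value of culture 1 came close to the HS+LPS value of culture 2. Within cultures the ratio of HS+LPS to LPS was 1.92 and 1.86. The difference was 0.91 (1.88-fold), with an SE of 0.49 and an adjusted p of 0.420 without the block. With it the SE was 0.09 and the adjusted p 0.000257. Against Control it was 1.03 (2.04-fold), with adjusted p-values of 0.382 and 0.000284. LPS alone gave 0.12 (adjusted p = 0.999; with the block 0.579).

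Bbc3, which encodes Puma, read 91.0 and 162 in Control, 87.8 and 178 in LPS, and 80.8 and 178 in HS+LPS. The 2 cultures differed far more from each other than any 2 groups did. HS+LPS against LPS was -0.06 (SE 0.51, adjusted p = 0.972; with the block SE 0.13 and adjusted p = 0.802). Its sign turned with quantile normalization (0.04).

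The GADD45 genes had 3 different orders of the groups. Gadd45b read 238 and 202 in Control, 340 and 296 in LPS, and 567 and 711 in HS+LPS. The groups did not overlap and stepped up in both cultures. HS+LPS was 1.99-fold above LPS (0.99, SE 0.17, adjusted p = 0.0608; with the block 0.00179) and 2.87-fold above Control (1.52, SE 0.17, adjusted p = 0.0517; with the block 0.000386). The second of these passed without the block when the pseudocount was 16 or the arrays were centred on their medians. LPS was 1.44-fold above Control (0.53, SE 0.17), with an adjusted p of 0.823 and, with the block, of 0.0939. With the block and median centring, a fit chosen after the data were seen, the adjusted p was 0.0238.

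The other Gadd45b probe sets pointed the same way for HS+LPS against LPS, with unequal sizes. 1449773_s_at, of a class that can match transcripts of more than 1 gene, read 157 and 141 in Control, 228 and 155 in LPS, and 482 and 631 in HS+LPS. Its difference was 1.54 (SE 0.23, adjusted p = 0.0601; with the block 0.000838). The dim 1420197_at read 31.8 and 25.4 in Control, 38.9 and 23.3 in LPS, and 37.4 and 44.3 in HS+LPS. Its groups overlapped, and its difference was 0.39 (SE 0.29, adjusted p = 0.628; with the block 0.343).

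Gadd45g had 1 probe set, which read 548 and 325 in Control, 333 and 186 in LPS, and 587 and 575 in HS+LPS. In each culture LPS was the lowest of the 3, although LPS in culture 1 slightly exceeded Control in culture 2. LPS against Control was -0.76 (SE 0.34), with an adjusted p of 0.999 without the block and 0.0579 with it. With the block and median centring, a fit chosen after the data were seen, the adjusted p was 0.000801. HS+LPS was 2.32-fold above LPS (1.21, SE 0.34, adjusted p = 0.167; with the block 0.00213). The return carried it to or above the Control level: the difference from Control was 0.10 in culture 1 and 0.82 in culture 2, 0.46 in the fit (SE 0.34, adjusted p = 0.595; with the block 0.103).

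Gadd45a was highest in LPS, where Gadd45g was lowest. Its 1 probe set read 154 and 208 in Control, 257 and 242 in LPS, and 186 and 158 in HS+LPS. Both LPS arrays were above all others (0.47 against Control, SE 0.19, adjusted p = 0.999; with the block 0.177). HS+LPS was lower than LPS by -0.53 (1.45-fold lower, SE 0.19, adjusted p = 0.239), which passed with the block (0.0415) but not with the block after quantile normalization (-0.46, adjusted p = 0.0830). HS+LPS and Control overlapped, with a difference of -0.06 (SE 0.19, adjusted p = 0.935).

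**Figure D2:**
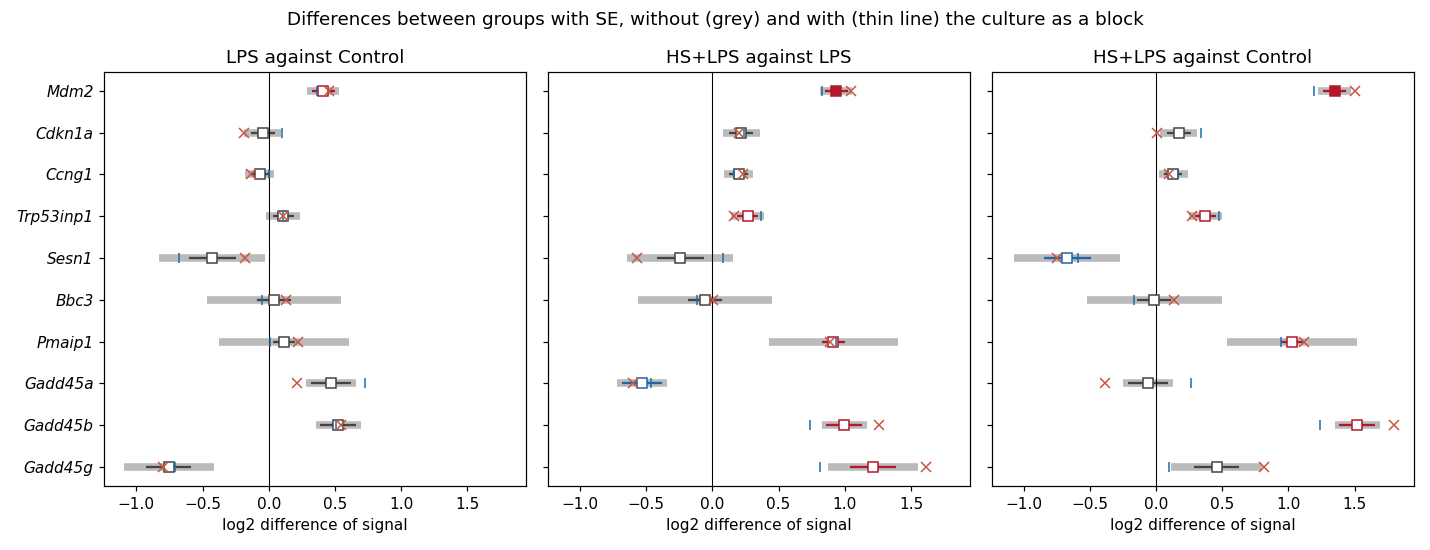
Log2 difference of signal (x axis) of the 10 genes in the 3 comparisons. Squares are the fitted differences, filled where the gene passed without the block and coloured red (higher) or blue (lower) where it passed with it; the thick grey bar is the SE without the block and the thin line the SE with it, and the tick and the cross are cultures 1 and 2 taken singly. Mdm2 is filled at 0.94 and 1.35, the Pmaip1 bar shrinks most with the block, and the Gadd45a and Gadd45g squares lie on opposite sides of 0 in the first 2 panels.

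Counted over the 10 genes, LPS against Control called 0 without the block, where 0.147% of all genes were called, and 1 (Mdm2) with it, where 2.78% were. At an unadjusted p under 0.05 without the block the count was 3, beside 4.87% of all genes. HS+LPS against LPS called 1 without the block, beside 1.34% of all genes, and 6 with it, beside 18.9%. With the block Mdm2, Gadd45b, Gadd45g, Pmaip1 and Trp53inp1 rose and Gadd45a fell. Of these, Trp53inp1 and Gadd45a lost their calls after quantile normalization. HS+LPS against Control called 1 without the block, beside 0.178% of all genes, and 5 with it, beside 17.2%. With the block Mdm2, Gadd45b, Pmaip1 and Trp53inp1 rose and Sesn1 fell, the last not after quantile normalization. Over all alternatives run on genes, with and without the block, the adjusted p for HS+LPS against LPS ran from 7.07e-08 to 0.235 for Mdm2, 2.87e-06 to 0.346 for Gadd45b, 2.21e-07 to 0.517 for Gadd45g, 1.62e-06 to 0.783 for Pmaip1, 0.0479 to 0.704 for Trp53inp1 and 0.0178 to 0.584 for Gadd45a. For HS+LPS against Control it ran from 7.37e-11 to 0.261 for Mdm2, 1.71e-09 to 0.266 for Gadd45b, 3.44e-07 to 0.797 for Pmaip1, 0.0127 to 0.539 for Trp53inp1 and 0.0127 to 0.838 for Sesn1. The low ends against LPS, except that of Trp53inp1, came from the block with median centring, a fit chosen after the data were seen. There the Mdm2 difference was 0.93, beside 0.94 without the centring, so the difference itself hardly moved. The median log2 difference of the 10 was 0.07, 0.24 and 0.27 in the 3 comparisons, beside -0.05, -0.05 and -0.09 over all genes tested. For HS+LPS against LPS the median of the 10 was 0.09 after quantile normalization. The 10 were chosen with earlier results of these data known, so these counts and medians are a description and not a test.

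**Figure D3:**
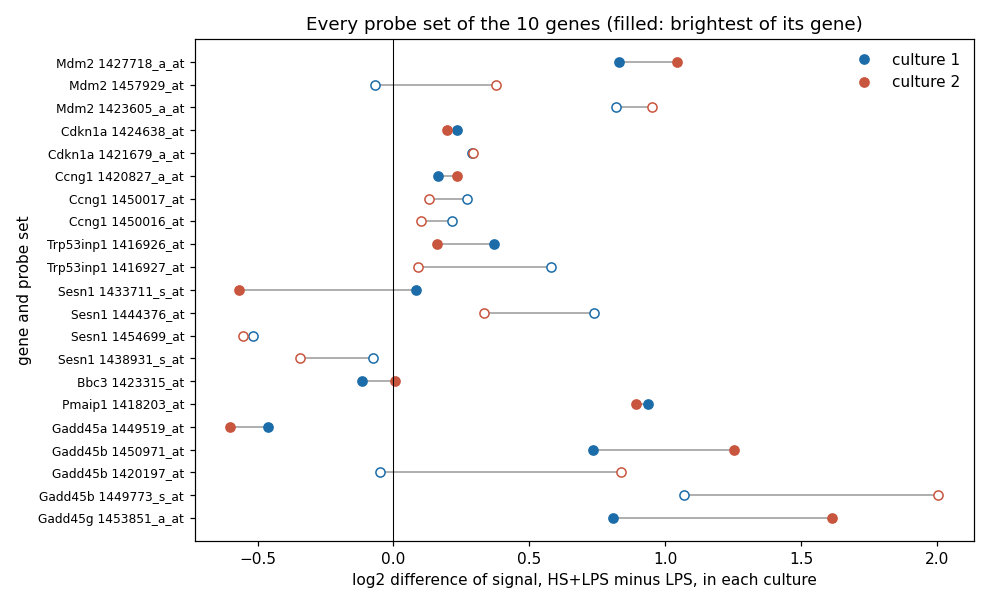
Log2 difference of signal between HS+LPS and LPS (x axis) for every probe set of the 10 genes (y axis), with 1 point for each culture and a line joining them; filled points are the brightest probe set of a gene. Both bright Mdm2 probe sets lie between 0.82 and 1.04, while 1457929_at, near noise, spans 0, and the Gadd45b probe sets spread from -0.05 to 2.00.

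In the wider p53 and GADD45 pathway, the genes called with the block lay on both sides of 0. Of 71 listed genes in 4 groups, 61 were tested, and limma without the block called 0 in each of the 3 comparisons, with 2, 18 and 19 at an unadjusted p under 0.05 for LPS against Control, HS+LPS against LPS and HS+LPS against Control, beside 4.87%, 16.8% and 16.2% of all genes. With the block, 2 rose in the first, where 2.06% of all genes rose and 0.720% fell. In the second 8 rose and 14 fell, beside 6.32% and 12.6% of all genes, and in the third 7 rose and 12 fell, beside 5.09% and 12.1%. In both of these, falls outnumbered rises over all genes as well as over the lists together. The lists, too, were chosen with earlier results of these data known. Trp53 itself, Bax, Gdf15, Fdxr, Tp53i11, Map2k7 and Ccnb1 were among the genes not analysed here, and Trp63 and Trp73 were under the filter on low signal.

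Among 29 other p53 targets tested, 6 rose and 7 fell with the block in HS+LPS against LPS, where 6.32% of all genes rose and 12.6% fell. The median was -0.12, beside -0.05 over all genes tested. Fas, a death receptor, had the widest swing. It read 349 and 180 in Control, 801 and 595 in LPS, and 290 and 127 in HS+LPS. Both LPS arrays were above all others. LPS against Control was 1.45 (SE 0.47, adjusted p = 0.823; with the block 0.00134), and HS+LPS against LPS was -1.83 (SE 0.47, adjusted p = 0.134; with the block 0.000167). Btg2, an antiproliferative cofactor, read 201 and 161 in LPS and 292 and 409 in HS+LPS, a difference of 0.93 (adjusted p = 0.159; with the block 0.0103). Plk3, a stress-responsive kinase, differed by 0.81 (adjusted p = 0.271; with the block 0.0394) and the repair endonuclease gene Ercc5 by -0.74 (adjusted p = 0.188; with the block 0.0122).

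Among p53's regulators, 15 were tested and in HS+LPS against LPS 0 rose and 5 fell with the block, against the same 6.32% and 12.6% of all genes, with a median of -0.31. Crebbp, the gene of an acetyltransferase coactivator of p53, read 323 and 335 in LPS and 191 and 221 in HS+LPS. That was a difference of -0.67 (SE 0.15, adjusted p = 0.103; with the block 0.00219). The damage kinase gene Atr differed by -0.55, the p53 deubiquitinase gene Usp10 by -0.49 and the acetyltransferase gene Kat5 by -0.47, with adjusted p-values of 0.0204, 0.00926 and 0.0414 with the block and of 0.284, 0.134 and 0.315 without it.

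Of 8 tested partners of the GADD45 proteins and their kinase pathway, 1 rose and 1 fell with the block in HS+LPS against LPS. Over all genes 6.32% rose and 12.6% fell. The median of the partners was -0.16, beside -0.05 over all genes tested. Map2k3, a kinase that activates p38, read 677 and 471 in LPS and 984 and 992 in HS+LPS (0.80, SE 0.25, adjusted p = 0.192; with the block 0.00458). Cdk1, the mitotic kinase, read 373 and 346 in LPS and 235 and 274 in HS+LPS (-0.50, SE 0.16, adjusted p = 0.199; with the block 0.0229). Of 9 cyclins and kinases that Cdkn1a binds, 1 rose and 1 fell with the block in the same comparison, beside the same shares of all genes. Their median was 0.01 and turned to -0.14 after quantile normalization. Ccne2, a G1/S cyclin, differed by 0.81 (adjusted p = 0.102; with the block 0.0105). Cdk6, a G1 kinase, was 0.52 higher in LPS than in Control (adjusted p = 0.999; with the block 0.0227) and differed by -0.52 in HS+LPS against LPS (adjusted p = 0.316; with the block 0.00689).

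**Figure D4:**
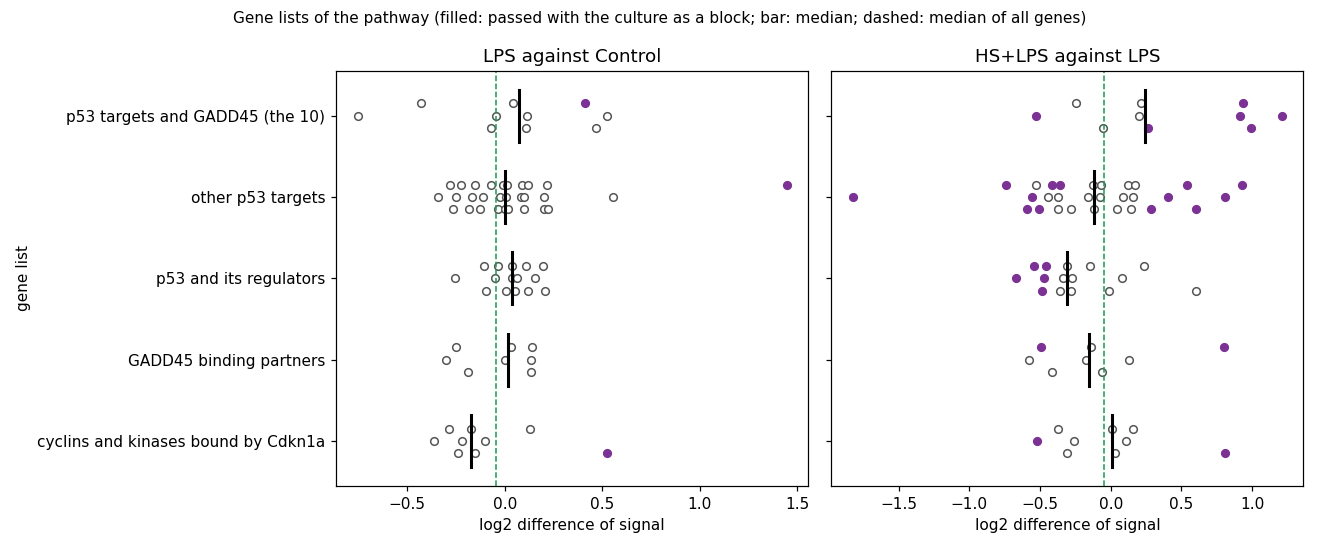
Log2 difference of signal (x axis) for the genes of 5 lists (y axis) in LPS against Control and HS+LPS against LPS; each point is a gene, filled where it passed with the culture as a block, the black bar is the list's median and the dashed line the median of all genes tested. The medians in the right panel are 0.24 for the 10 genes, -0.12 for other p53 targets, -0.31 for p53's regulators, -0.16 for GADD45 partners and 0.01 for the cyclins and kinases.

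For the 7 genes that passed in at least 1 comparison, 6 of them only with the block, the nearest genes were sought by the distance between their 4 log2 differences from the Control array of the same culture. These differences share their Control arrays, and the distance is a description over 2 cultures. Nearest to Mdm2 were Dusp10 at 0.17, Slc20a1 at 0.21 and Gata6 at 0.26. Nearest to Gadd45b were Srxn1 at 0.33, Mdm2 at 0.34 and Pim1 at 0.35, so that Mdm2 was the only one of the 10 to appear among another's nearest genes. Pmaip1 lay nearest to Socs7 (0.11), Cacybp (0.14) and Rbbp6 (0.18). Gadd45g lay nearest to Fhl2 (0.25), Gm15728 (0.36) and Cd24a (0.37), and Gadd45a to Car6 (0.15), S1pr3 (0.16) and Zscan18 (0.19). Trp53inp1 lay nearest to Mfap3 (0.07), Tnfrsf22 (0.10) and Sec61a1 (0.11), and Sesn1 to Dhrs13 (0.08), Hoxa7 (0.12) and Epha7 (0.12).

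Fibroblast markers were present throughout: the 9 measured of 10 listed all passed the filter, with a summed signal of 26625 to 34915 over the 6 arrays. Of these, Pdgfrb fell in HS+LPS against LPS (-0.81, adjusted p = 0.0277), and with the block Pdgfrb and Pdgfra (-0.96 against LPS) fell against both LPS and Control. Macrophage markers summed to 203 to 400 with no order by group, and Fcgr1 and Itgam were at noise. The sums of some other lists read higher in HS+LPS, where Mdm2, Gadd45b, Gadd45g and Pmaip1 also read highest, but single genes did not all follow the sums. Epithelial markers summed to 54.3 to 61.3 in Control, 52.2 to 96.3 in LPS and 89.3 to 126 in HS+LPS, with Cdh1 at noise. Of the 4 epithelial genes tested, 3 were higher in HS+LPS than in LPS and Krt5 was lower (-1.03). Only Krt18 was called with the block against LPS (1.24), where 6.32% of all genes rose, and 0 against Control. Skeletal muscle markers summed to 301 to 354, 258 to 313 and 378 to 448, with Myh3 at noise. Of the 3 tested, 2 were higher in HS+LPS than in LPS and Ckm was lower (-0.11). With the block Acta1 was called against LPS (0.53) and Des against Control (0.98). Neural and glial markers, 5 measured of 6 listed, summed to 357 to 516, 269 to 458 and 420 to 638, but of the 4 tested only Map2 was called with the block (0.75 against LPS), and the list's median was 0.01 against LPS and -0.27 against Control. Endothelial markers summed to 36.7 to 44.5, 23.7 to 53.4 and 51.3 to 58.4, with Pecam1, Tie1 and Vwf at noise. The 2 tested, Kdr and Tek, were not called in any comparison, and Tek was -0.03 against Control. The single marker genes named here with a difference were singled out after their values were seen. The part of these markers in the results was not tested.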

How the data were processed

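The authors deposited a signal intensity on a linear scale for each probe set, measured with biotin-labelled cRNA on 1-colour Affymetrix mouse arrays, per the labels. The software that made them was not given in the sources used here. Each array had the same trimmed mean (100.001), so a difference in total mRNA cannot be seen. The depth of an array has no count; the 2 arrays a group limit precision. Of 45101 probe sets, 64 controls were dropped and 34945 had 1 gene symbol in the platform annotation. Signals were turned into log2(intensity + 3.37), 3.37 being the 25th percentile. Probe sets under the 40th percentile were left out, which kept 27022, and each gene was read from its brightest probe set with 1 symbol. limma 3.58.1 in R 4.3.3 (lmFit, eBayes with trend) was fitted to 12917 genes and 6 arrays, with 3 residual degrees of freedom. It was first run on simulated arrays that had no culture effect, without the block. That run therefore does not bear on the fit with the block. The same embryo gave the same-numbered arrays, per the labels, and their deviations from the group means correlated at 0.62, 0.57 and 0.54, so the fit with the culture as a block is printed wherever it changes a call. Alternatives were the pseudocount, the filter, quantile normalization, median centring, the mean of probe sets, no trend, each array left out, each probe set singly, and the block with either scaling. The members and lists were chosen with earlier results of these data known. Named pathway genes are those past the threshold with or without the block in LPS against Control or HS+LPS against LPS, at most 4 by size for each list and comparison. P-values are limma's, adjusted by Benjamini-Hochberg over all genes. Motifs were searched in RefSeq windows; Pmaip1 and Trp53inp1 had no entry.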

Additional observations from a re-analysis of the deposited data

How the results depend on the processing

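With the culture as a replicate block, the pairing by embryo, the count of the 10 genes called rose from 0 to 1 in LPS against Control, from 1 to 6 in HS+LPS against LPS and from 1 to 5 in HS+LPS against Control. The counts of pathway genes rose from 0 to 2, 22 and 19. With the block and quantile normalization, the 10 genes gave 1, 4 and 4 calls and the pathway genes 3, 18 and 19. With the block and median centring they gave 3, 5 and 6 calls, and 3, 20 and 18. Both combinations and the fit of single probe sets were chosen after seeing the data. Shares of all genes called were worked out only for the main fit and the fit with the block. The counts from the other fits therefore have no background to be read against. Without the block, HS+LPS against Control called 2 of the 10 with a pseudocount of 16 and 2 with median centring (Mdm2 and Gadd45b each time). Mean probe sets and a fit without trend called 0 of the 10 in both HS+LPS comparisons. Leaving out 1 array gave 0 to 0 calls there, with fewer samples by construction.

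Signs that turned belonged to differences that were not called without the block, and their cause was not tested. In LPS against Control, Mdm2 was -0.06 on 1457929_at, Cdkn1a was 0.01 after quantile normalization and 0.03 on 1421679_a_at, and Ccng1 was 0.01 after quantile normalization. With 1 array left out, Cdkn1a ran from -0.17 to 0.08, Ccng1 from -0.17 to 0.04, Trp53inp1 from 0.00 to 0.22, Bbc3 from -0.45 to 0.54, Pmaip1 from -0.42 to 0.65 and Sesn1 from -0.96 to 0.11. In HS+LPS against LPS, Bbc3 was 0.04 after quantile normalization and ran from -0.61 to 0.50, and Sesn1 ran from -0.78 to 0.29. In HS+LPS against Control, quantile normalization gave 0.01 for Gadd45a and 0.08 for Bbc3, and leaving out 1 array gave -0.27 to 0.15 and -0.57 to 0.54. Of the 540 other values recomputed for single genes, 455 kept direction and side of the threshold, 36 came to pass, 20 ceased to pass and 29 turned sign.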
